A study of Arabidopsis thaliana with 18 samples.

Results

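The comparison of 24 h with 1 h of cold in the gemin2 mutant of Arabidopsis thaliana rests on 6 of the 18 RNA-seq libraries of the series, 3 at each time. They were chosen by their labels, as gemin2 plants that spent 1 h or 24 h at 10 °C. All plants of the series were of the Col ecotype, wild type (WT) or gemin2 by genotype, and were raised on Murashige and Skoog medium in continuous white light at 22 °C; whole plants were taken at 9 days. WT plants after 1 h and 24 h at 10 °C, 3 libraries each, serve as the comparison for the same interval. The gemin2 plants kept at 22 °C, also 3 libraries, give a reference level where one is needed. The labels name the mutant as gemin2 and do not describe the lesion. No label says that the libraries of a group came from separate plantings, so p-values measure the spread between these libraries, which may be technical. The labels give no hour of harvest, so time in the cold, hour of harvest and the age reached cannot be told apart. In RNA from whole plants, fewer cells of a type and less RNA per cell cannot be told apart either.

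GEMIN2 belongs to the machinery that loads a ring of Sm proteins onto small nuclear RNAs. The resulting small nuclear ribonucleoproteins (snRNPs) are the core of the spliceosome, which removes introns. Cold acts on plants in waves: early transcription factors, the CBF factors among them, are followed by their targets, the COR genes, whose products protect cells against freezing. The CBF factors bind the CRT/DRE element of promoters, whose core is CCGAC, and CBF and COR genes are also gated by the circadian clock.

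The 3 gemin2 libraries at 1 h (A, B and C in the deposited tables) held 53766089, 33818136 and 32777883 gene counts, and those at 24 h held 20824361, 26833208 and 29036207. Library A stood apart from B and C at both times. The first principal component of the gene levels held 84.4% of the variance and separated the times, and the second held 8.79% and separated library A of both times from the rest. Ribosomal RNA genes took 2.08% to 2.57% of gene counts at 1 h and 0.816% to 1.30% at 24 h, and chloroplast genes 1.87% to 2.30% and 0.602% to 0.966%, with no overlap. In 1 gemin2 library at 22 °C (C) the ribosomal RNA share was 22.5%. A chi-square per gene between libraries of one group was 34.3 to 68.5 where library A took part and 7.74 to 9.33 between B and C. Summed levels of the 10 root markers were 143 to 177 CPM (gene counts scaled to library size with TMM factors) at 1 h and 176 to 235 CPM at 24 h. Those of the 9 markers of dividing cells were 80.6 to 108 CPM and 69.8 to 84.0 CPM. Of 10 floral organ and seed markers, 5 passed the filter on low counts, and the summed levels of these 5 were 7.53 to 10.3 CPM and 4.77 to 6.35 CPM. Of 10 root markers 4 rose and 1 fell, of 9 dividing cell markers 1 rose and 6 fell, and of the 5 floral and seed markers none rose and 3 fell, where 28.5% of all genes tested rose and 30.5% fell. No marker of these lists was at 0 in all cold libraries. The part of library composition and of these markers in the results below was not tested.

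GEMIN2 itself (AT1G54380, chromosome 1, 20297965 to 20300908 in TAIR10) was at 2.90, 2.88 and 3.16 CPM after 1 h and at 5.66, 4.80 and 5.46 CPM after 24 h in gemin2. WT had 10.9, 10.5 and 11.9 CPM after 1 h and 20.5, 21.4 and 21.2 CPM after 24 h. Every gemin2 library lay below every WT library, and counts at the locus remained in the mutant. The level rose by 0.83 ± 0.12 (log2 change ± SE; adjusted p = 9.75e-06, edgeR) in gemin2 and by 0.92 ± 0.11 in WT, and the difference of -0.10 ± 0.16 did not pass the test (adjusted p = 0.778, edgeR).

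Between 1 h and 24 h of cold in gemin2, 22 of 24 nuclear photosynthesis genes, 14 of 19 jasmonate genes and 7 of 13 CBF and other cold regulators fell. Over the same interval 16 of 20 COR and dehydrin genes, 20 of 25 flavonoid genes and all 26 genes of ribosome biogenesis rose. Of 21918 genes that passed the filter on low counts, 6248 (28.5%) were called higher and 6678 (30.5%) lower at 24 h by edgeR's quasi-likelihood test at an adjusted p under 0.05. A change of at least 2-fold was seen in 2340 of the higher and 2835 of the lower genes. The median change over all genes tested was -0.04 on the log2 scale. Libraries of the times did not overlap in 13696 of the 21918 genes, of which 12131 were called. Of the 12926 called genes, 91.7% had the same sign of change over the same interval in WT, which shares no library with the gemin2 comparison.

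The CBF genes, whose transcription factors open the cold response, were high at 1 h and low at 24 h. CBF2 was at 0.530, 0.987 and 0.722 CPM at 22 °C, at 59.6, 25.7 and 20.2 CPM after 1 h and at 6.60, 3.20 and 3.21 CPM after 24 h, a change of -3.06 ± 0.37 (adjusted p = 7.87e-07). CBF3 was at 40.8, 17.2 and 15.0 CPM after 1 h and at 5.21, 3.95 and 2.37 CPM after 24 h, a change of -2.69 ± 0.38. CBF1 was the least abundant of them, with 3.27, 0.935 and 1.27 CPM after 1 h, 0.199, 0 and 0.128 CPM after 24 h and a change of -4.14 ± 0.71. Library A held the highest value of all 3 genes at 1 h, and the times did not overlap for any of them. CBF1 and CBF3 were added after their values were seen. Of the 13 cold regulators that passed the filter, of 15 listed, 7 fell, 3 rose and 3 were not called, with a median of -0.51. RAV1, an AP2/B3 transcription factor, changed by -1.02 ± 0.10, and COR28, a regulator linking cold and clock, by -1.31 ± 0.15. ZAT12, a zinc finger factor of stress responses, went the other way, from 25.5, 18.1 and 21.5 CPM to 103, 87.1 and 98.0 CPM, a rise of 2.14 ± 0.17 (adjusted p = 2.24e-09). This exceeded the change in WT by 1.20 ± 0.23 (adjusted p = 0.00224, edgeR).

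Most COR genes had the opposite course. COR15A, which encodes a chloroplast protein that stabilises membranes during freezing, was at 47.5, 49.1 and 49.9 CPM after 1 h, overlapping its 46.8 to 48.4 CPM at 22 °C, and at 5357, 3192 and 4294 CPM after 24 h. This was a rise of 6.45 ± 0.25 (adjusted p = 2.29e-13), or 87.7-fold between the means. COR78 (RD29A) went from 84.6, 115 and 127 CPM to 3910.4, 4112 and 4084 CPM, and COR15B from 18.2, 28.8 and 25.8 CPM to 976, 919.8 and 1066 CPM, rises of 5.21 ± 0.20 and 5.35 ± 0.21. All of these libraries were many times higher at 24 h than at 1 h. LTI30, a dehydrin, rose from 22.4, 30.9 and 26.4 CPM to 259, 292 and 320.0 CPM. Its rise of 3.45 ± 0.14 was greater than the 2.24 of WT by 1.21 ± 0.19 (adjusted p = 0.000367, edgeR). Of the 20 COR and dehydrin genes, all of which passed the filter, 16 rose and 3 fell, with a median of 2.15, and in WT 14 rose and 4 fell. The list is named for its main members and also holds ELIP1, ELIP2, FAD8, SFR2 and ADH1. The summed level of the list was 2962 to 3086 CPM after 1 h and 23176 to 28893 CPM after 24 h.

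**Figure D1:**
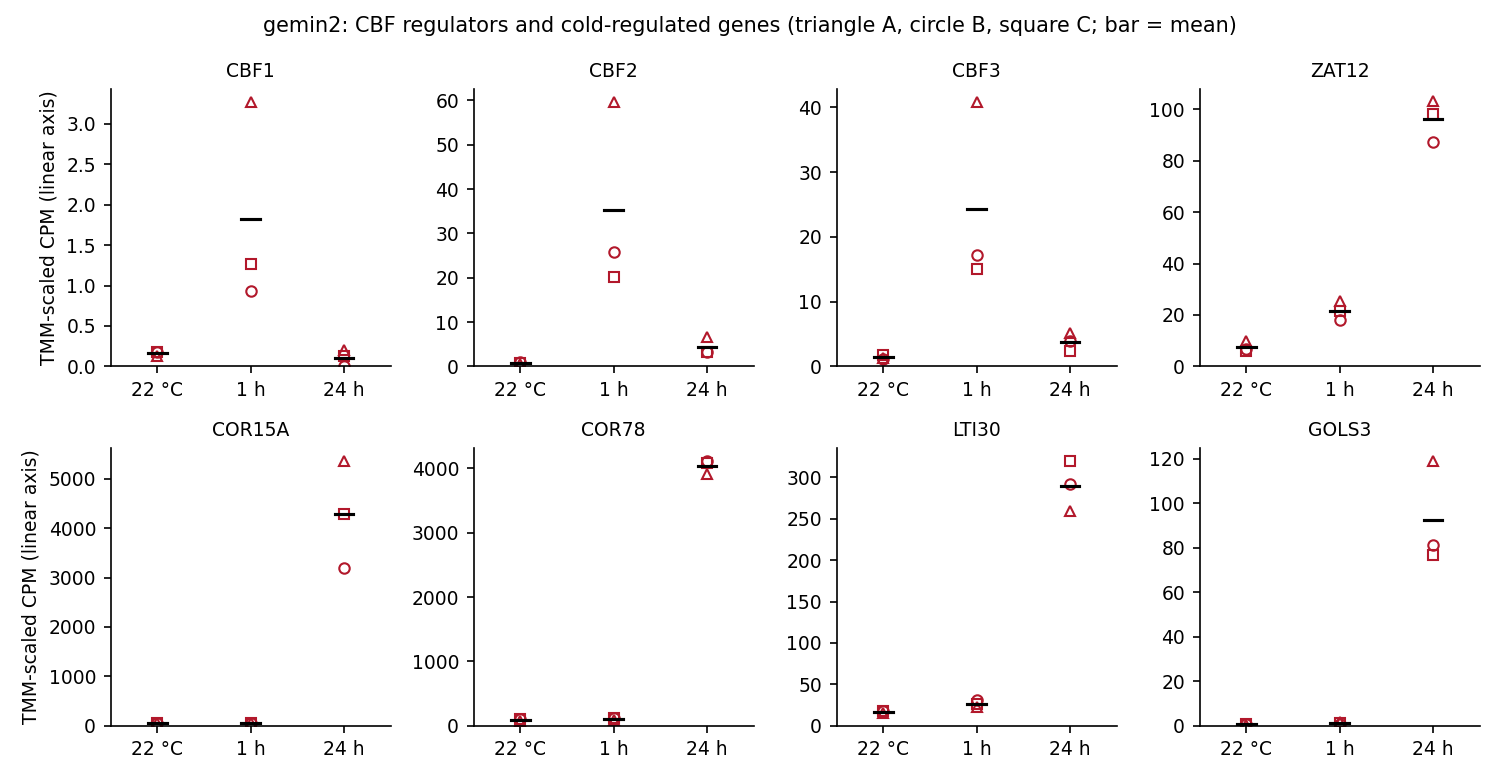
Levels of 4 regulators (upper row) and 4 cold-regulated genes (lower row) in each gemin2 library at 22 °C and after 1 h and 24 h at 10 °C, as TMM-scaled CPM on linear axes, with triangles for library A, circles for B, squares for C and bars for means of 3. The CBF genes are highest at 1 h with library A above the others, and the lower row is high at 24 h, where COR15A spans 3192 to 5357 CPM.

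The core CCGAC was searched on both strands (CCGAC or GTCGG) in the 250 bases before the annotated gene start, with sequence from RefSeq's TAIR10.1. It was present in 11 of the 20 COR and dehydrin, 8 of 27 clock, 7 of 26 ribosome biogenesis, 3 of 19 jasmonate and 2 of 24 photosynthesis promoters. It was present in 14.3% of the 21681 promoters of tested genes, in 18.2% of the 2326 of genes called higher by at least 2-fold and in 10.6% of the 2788 of genes called lower by at least 2-fold. The palindromic G-box CACGTG, a site of bHLH and bZIP factors, was in 8.84% of all tested promoters, in 186 of the 2326 promoters of the higher and 367 of the 2788 (13.2%) of the lower genes. It was found in 9 of 20 COR and dehydrin, 9 of 24 photosynthesis, 8 of 19 jasmonate, 11 of 27 clock and 3 of 26 ribosome biogenesis promoters. The evening element AAAATATCT, searched on both strands, was in 2.31% of all, 2.79% of the higher and 2.94% of the lower promoters. It was in 4 of the 20 COR and dehydrin, 4 of 27 clock, 3 of 19 jasmonate, 1 of 26 ribosome biogenesis and 0 of 24 photosynthesis promoters. A match describes these letters and not binding. The promoters of COR15A and its tandem neighbour COR15B are shown with CCGAC or GTCGG in capitals, and that of GolS3, a gene with a like rise and no match in this window, for contrast, all 5′ to 3′ on the gene's strand.
COR15A, minus strand, chr2:17712331-17712580: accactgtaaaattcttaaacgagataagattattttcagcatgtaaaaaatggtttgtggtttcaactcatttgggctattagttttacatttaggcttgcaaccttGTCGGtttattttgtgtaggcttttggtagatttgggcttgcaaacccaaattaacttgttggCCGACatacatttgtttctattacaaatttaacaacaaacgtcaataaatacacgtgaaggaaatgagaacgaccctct
COR15B, minus strand, chr2:17709946-17710195: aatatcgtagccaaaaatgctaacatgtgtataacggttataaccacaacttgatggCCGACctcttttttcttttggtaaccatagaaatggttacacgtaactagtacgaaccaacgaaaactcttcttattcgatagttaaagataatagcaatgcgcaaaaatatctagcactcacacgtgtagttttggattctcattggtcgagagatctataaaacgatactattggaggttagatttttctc
GolS3, plus strand, chr1:3019569-3019818: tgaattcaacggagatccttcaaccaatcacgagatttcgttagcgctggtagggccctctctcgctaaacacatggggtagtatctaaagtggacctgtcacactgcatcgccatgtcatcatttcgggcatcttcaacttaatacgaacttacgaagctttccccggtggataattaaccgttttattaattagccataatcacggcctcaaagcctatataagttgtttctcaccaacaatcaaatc

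The 10 largest rises, among genes averaging 5 CPM or more whose times did not overlap, were led by NDB4 (AT2G20800), an alternative NAD(P)H dehydrogenase. It was at 0.588, 0.320 and 0.592 CPM after 1 h and at 78.8, 56.2 and 63.1 CPM after 24 h, a change of 7.02 ± 0.27 (adjusted p = 1.85e-13). A P-loop nucleoside triphosphate hydrolase (AT2G18190) went from 0.629, 0.534 and 0.564 CPM to 71.9, 72.8 and 78.6 CPM, and a MATE efflux protein (AT2G04070) from 0.467, 0.988 and 0.366 CPM to 54.5, 55.6 and 65.0 CPM. All were near 0 at 1 h. GolS3, a galactinol synthase of raffinose synthesis, rose from 1.68, 0.961 and 1.27 CPM to 119, 81.1 and 76.8 CPM. The remaining 6 were COR15A, CHR34 (a chromatin remodeler), a cysteine proteinase (AT1G29090), a proteoglycan-like protein (AT5G54095), AT5G13210 and AT1G69140, with changes of 5.97 to 6.45. The rises of AT5G54095 and AT5G13210 exceeded those of WT by 4.25 ± 0.54 and 3.30 ± 0.32 (adjusted p = 5.29e-05 and 3.65e-06, edgeR). AT5G13210 reached 165, 160.1 and 144 CPM in gemin2 and 8.70, 7.74 and 10.1 CPM in WT after 24 h.

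The deepest fall was that of AT1G74670, of the gibberellin-regulated family, from 30.2, 46.4 and 37.3 CPM to 0.149, 0.238 and 0.417 CPM, a change of -7.04 ± 0.28 (adjusted p = 3.1e-13). Neighbouring ferric reduction oxidase genes fell together, FRO6 from 96.0, 94.7 and 110.1 CPM to 1.24, 1.46 and 1.96 CPM and FRO7 from 65.8, 60.4 and 69.7 CPM to 0.794, 2.52 and 1.99 CPM. SNG1 (AT2G22990, also SCPL8), the enzyme that makes the leaf sunscreen sinapoylmalate, went from 180.3, 185 and 180.0 CPM to 5.46, 7.69 and 5.04 CPM. The other 6 were a zinc finger protein (AT5G22920), a B-box protein (AT1G68190), a thioredoxin-like protein (AT5G18600), a lectin (AT1G52100), AT1G49500 and AT2G29290, with changes of -6.18 to -4.94. AT2G29290 overlaps AT2G29280. The labels' library protocol mentions no step that marks strand, and the strand setting of the counting is not given in the sources used here. Genes named as overlapping, here and below, are therefore uncertain.

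Genes of raffinose, proline and starch metabolism rose more often than they fell. Of 26 such genes 16 rose and 6 fell, with a median of 0.89, against 17 and 3 in WT with a median of 1.30. The change was more negative than in WT in 10 of the 26 and more positive in 4. Over all genes these shares were 5.89% and 6.91%. APL3, a subunit of the enzyme that makes ADP-glucose for starch, went from 5.84, 7.26 and 7.53 CPM to 141, 143 and 183 CPM. GPT2, the glucose-6-phosphate translocator of plastids, went from 5.17, 10.0 and 5.89 CPM to 363, 314 and 448 CPM, a rise of 5.74 ± 0.25. Both had been low in all libraries at 1 h. The starch debranching enzyme ISA3 rose by 3.28 ± 0.14, from 34.2, 31.6 and 28.9 CPM to 335, 251 and 336 CPM. Its rise was smaller than the 4.41 of WT, by a difference of -1.13 ± 0.19 (adjusted p = 0.000613, edgeR). P5CS2, of proline synthesis, rose by 1.89 ± 0.09. ASN1, asparagine synthetase, named after its values were seen, was uneven at 1 h, with 245, 53.4 and 97.5 CPM, and was at 22.0, 8.88 and 16.4 CPM after 24 h. WT was at 21.5 to 23.4 CPM and then 16.1 to 21.8 CPM, and the changes differed by -2.86 ± 0.54 (adjusted p = 0.00181, edgeR).

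Of 25 flavonoid and anthocyanin genes, 20 rose and 3 fell, with a median of 2.30. PAP1, the MYB factor that turns on anthocyanin synthesis, went from 0.832, 0.748 and 0.648 CPM to 12.0, 11.8 and 15.1 CPM, a rise of 4.11 ± 0.19. The flavonol regulator MYB111 went from 3.77, 4.83 and 2.79 CPM to 22.3, 21.3 and 25.7 CPM. In WT it was at 19.4 to 22.3 CPM after 1 h, and its rise in gemin2 was greater by 2.13 ± 0.24 (adjusted p = 1.49e-05, edgeR). The enzymes 4CL3 and F3H rose by 2.53 ± 0.14 and 2.73 ± 0.15, and F3H overlaps AT3G51238. MYBL2, a repressor of the pathway named after its values were seen, went from 15.2, 10.4 and 14.6 CPM to 3.03, 5.89 and 2.98 CPM, while WT was at 3.28 to 3.92 CPM after 1 h and 3.16 to 4.78 CPM after 24 h.

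**Figure D2:**
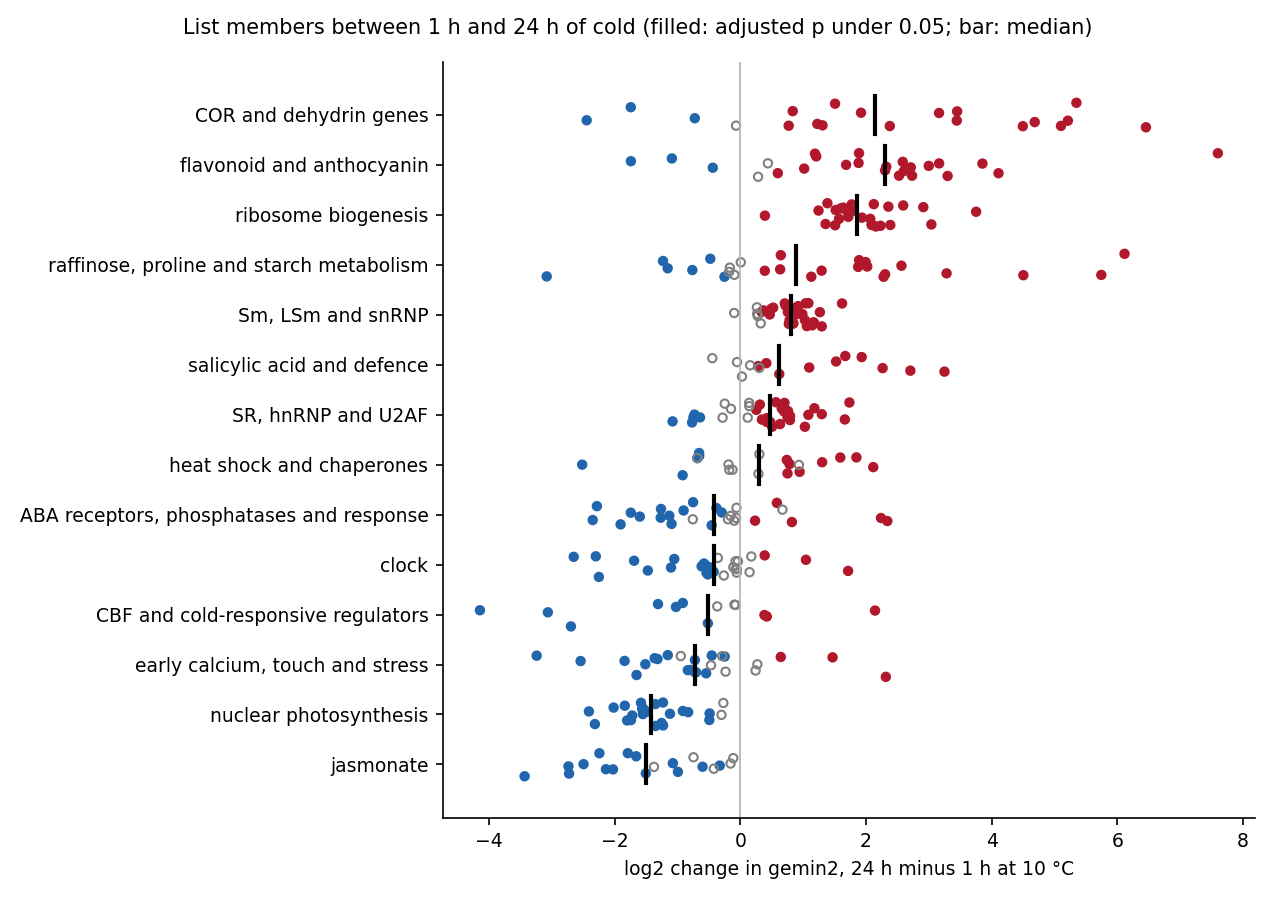
Change of each list member between 1 h and 24 h of cold in gemin2, as log2 on the horizontal axis, for 14 lists, with filled points for an adjusted p under 0.05 (red higher, blue lower), open grey points for the rest and bars for list medians. The COR list has a median of 2.15, ribosome biogenesis 1.85 and jasmonate -1.50, against -0.04 over all genes tested.

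All 26 listed genes of ribosome biogenesis rose, with a median of 1.85, and 25 of them rose in WT. NOP56, a core protein of the box C/D small nucleolar RNPs, went from 142, 164 and 154 CPM to 788, 804 and 813 CPM, and fibrillarin 2 (FIB2), the methyltransferase of these particles, from 42.4, 52.3 and 46.3 CPM to 398, 369 and 392 CPM. Nucleolin 1 (NUC1) rose by 2.36 ± 0.09 and BRX1-2, an assembly factor of the large subunit, by 2.23 ± 0.08. FIB2 overlaps AT4G25631. Of the 20 heat shock and chaperone genes that passed the filter, of 21 listed, 8 rose, 5 fell and 7 were not called, with a median of 0.30. Of all genes tested 28.5% rose and 30.5% fell. The cytosolic chaperone HSP90.2 rose from 199, 206 and 191 CPM to 843, 822 and 917 CPM, and HSC70-1 rose by 1.59 ± 0.10.

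Genes of the splicing machinery also rose, by smaller amounts. Of 36 genes of Sm and LSm proteins, snRNP proteins and snRNP assembly, 31 rose, none fell and 5 were not called, with a median of 0.81. In WT 28 rose and none fell. The change was more positive in gemin2 than in WT in 7 members, as in 6.91% of all genes tested, a share that varied with the scaling. SMD1A, of the Sm ring, went from 18.5, 21.3 and 20.3 CPM to 59.5, 60.2 and 65.0 CPM, and it overlaps AT3G07600. SMD3A and SMD3B, paralogs encoding another ring protein, rose by 1.08 ± 0.08 and 1.27 ± 0.10, and PRP8, the large protein at the spliceosome's centre, by 0.99 ± 0.08. Of 33 SR, hnRNP and U2AF genes, whose products guide splice site choice, 22 rose and 5 fell in gemin2 against 15 and 8 in WT, with a median of 0.48. SCL30A went from 97.6, 82.0 and 75.6 CPM to 305, 267 and 278 CPM, a rise of 1.74 ± 0.10 that exceeded WT by 0.77 ± 0.14 (adjusted p = 0.00153, edgeR). RSZ22A rose by 1.66 ± 0.10.

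Nuclear genes of photosynthesis fell almost throughout, 22 of 24 with none higher and a median of -1.42. Chloroplast genes took a smaller share of the counts at 24 h too, as given above, and the part of that shift was not tested. LHCB3, a light-harvesting protein of photosystem II, was at 1889, 2259 and 2036 CPM after 1 h and at 541, 652 and 538 CPM after 24 h, and it overlaps AT5G54280. LHCB5 changed by -1.35 ± 0.09 and PSAD1, of photosystem I, by -1.35 ± 0.11. Of the 19 jasmonate genes that passed the filter, of 20 listed, 14 fell and none rose, with a median of -1.50. JAZ6, a repressor of the pathway, went from 96.7, 109.6 and 105 CPM to 13.6, 19.6 and 13.5 CPM, and MYC2, its central transcription factor, from 155, 99.6 and 136 CPM to 27.4, 25.3 and 30.1 CPM. Of 25 early calcium, touch and stress genes 16 fell and 3 rose, with a median of -0.72. ERF6, an ethylene response factor, was at 6.22 to 8.84 CPM at 22 °C, at 182, 100.4 and 131 CPM after 1 h and at 16.2, 10.9 and 16.8 CPM after 24 h, a change of -3.24 ± 0.21. SZF1, a zinc finger gene, went from 367, 337 and 344 CPM to 105, 100.2 and 129 CPM and was then still above its 23.6 to 25.7 CPM at 22 °C. CML37, a calmodulin-like gene of the same list, rose by 2.32 ± 0.23.

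Hormone and defence lists differed from one another in direction, where 28.5% of all genes tested rose and 30.5% fell. Of the 26 abscisic acid (ABA) genes that passed the filter, of 27 listed, 14 fell and 5 rose, with a median of -0.42. The ABA receptors PYR1 and PYL8 changed by -1.26 ± 0.10 and -1.74 ± 0.15, while CYP707A1, which breaks ABA down, rose from 7.36, 6.94 and 6.51 CPM to 44.6, 26.9 and 27.3 CPM. Of 15 salicylic acid and defence genes 10 rose and none fell. PBS3, of salicylic acid synthesis, went from 2.43, 3.82 and 3.97 CPM to 31.9, 31.0 and 33.5 CPM, and ICS1, an earlier enzyme of the same route, rose by 1.52 ± 0.15. Of the 19 flowering genes that passed the filter, of 20 listed, 4 rose and 5 fell. Of 9 reference genes 2 rose and 2 fell, with a median of -0.11.

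The clock genes LHY and CCA1, which encode paired morning MYB factors, changed differently from WT. LHY was at 42.5, 51.2 and 47.2 CPM after 1 h and at 136, 166 and 161 CPM after 24 h in gemin2, and at 87.1, 102 and 92.8 CPM and then 83.9, 98.0 and 90.0 CPM in WT. It rose by 1.72 ± 0.12 in gemin2 against -0.05 in WT, a difference of 1.77 ± 0.16 (adjusted p = 2.07e-06, edgeR). CCA1, added after its values were seen, went from 91.3, 79.7 and 69.1 CPM to 177, 164 and 156 CPM in gemin2, with a difference from WT of 1.32 ± 0.17 (adjusted p = 7.35e-05, edgeR). PRR7, a pseudo-response regulator that represses LHY and CCA1, went from 87.7, 85.0 and 88.0 CPM to 55.2, 67.0 and 59.6 CPM in gemin2. In WT it rose from 20.6, 23.1 and 26.3 CPM to 50.4, 59.8 and 62.2 CPM, and the difference was -1.82 ± 0.15 (adjusted p = 5.92e-07, edgeR). LUX, of the evening complex, changed by -2.25 ± 0.17, from 107, 77.7 and 73.5 CPM to 23.9, 15.9 and 15.0 CPM, a deeper fall than in WT by a difference of -1.22 ± 0.23 (adjusted p = 0.00197, edgeR). BOA, its close relative, changed by -2.65 ± 0.21 and LNK2, which overlaps AT3G54490, by -1.47 ± 0.11. Of 27 clock genes 14 fell and 3 rose, with a median of -0.42, and 16 changed differently from WT, 8 in each direction. Over all genes tested 6.91% differed in the positive and 5.89% in the negative direction, a split that turned with the scaling. CO, the day-length gene of the flowering list, was at 5.29, 7.13 and 6.20 CPM after 1 h in gemin2 against 36.7, 34.4 and 29.6 CPM in WT. After 24 h it was at 2.18 to 2.89 CPM in gemin2 and 2.54 to 2.96 CPM in WT.

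**Figure D3:**
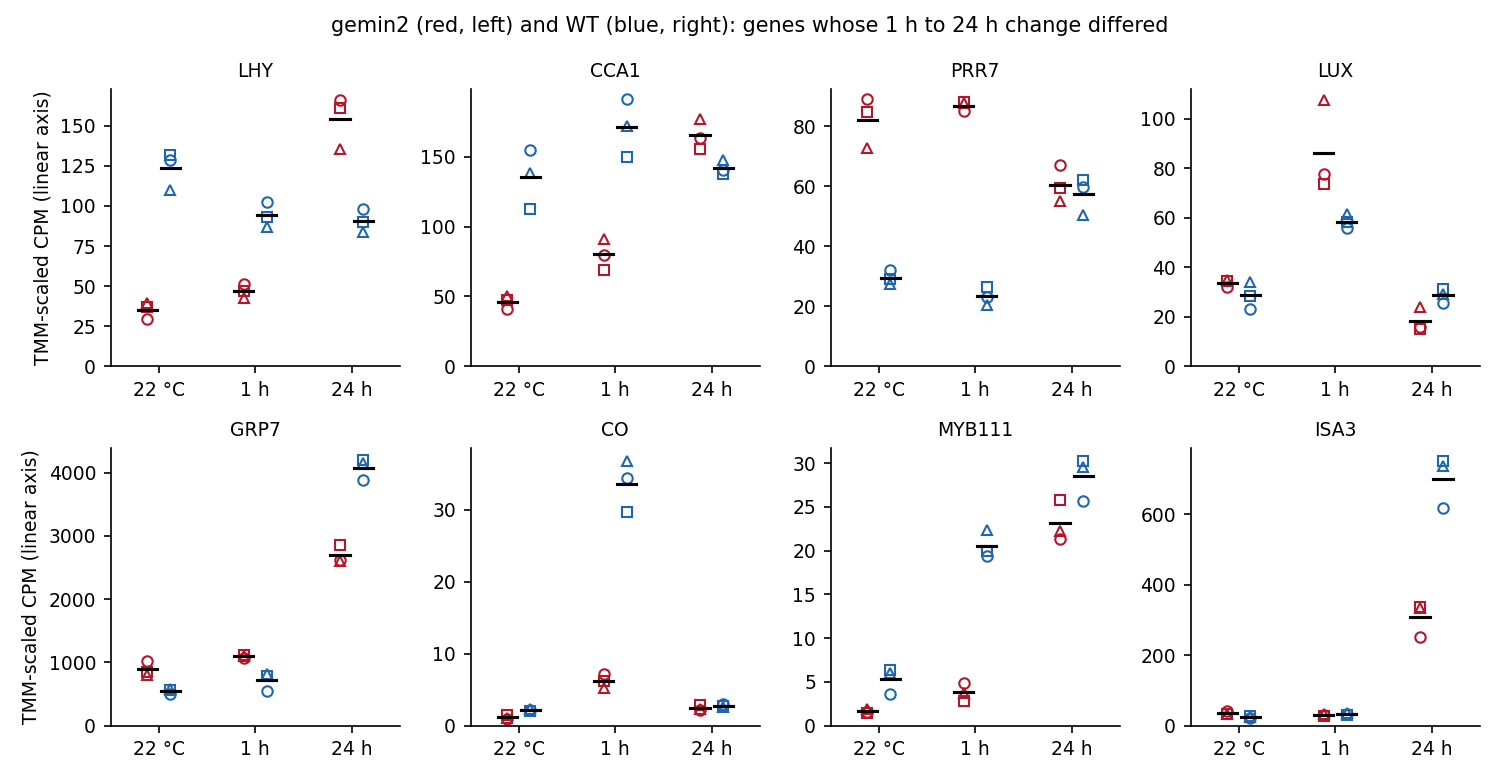
Levels of 8 genes whose change between 1 h and 24 h of cold differed between gemin2 (red, left of each tick) and WT (blue, right), per library as TMM-scaled CPM on linear axes, with the 22 °C libraries for reference, triangles for library A, circles for B, squares for C and bars for means of 3. LHY in gemin2 goes from 42.5 to 51.2 CPM at 1 h to 136 to 166 CPM at 24 h, while WT is at 87.1 to 102 CPM and 83.9 to 98.0 CPM.

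Over all genes, the change between the times differed between gemin2 and WT in 2807, of which 1515 (6.91%) were more positive in gemin2 and 1292 (5.89%) more negative. That split turned with the scaling, to 1025 and 1737 with rRNA genes removed before scaling. Among the smallest adjusted p-values in the positive direction was the ABC transporter MRP3 (AT3G13080), which went from 118, 119 and 113 CPM to 884, 1080.1 and 1039.9 CPM in gemin2 and from 60.3 to 74.7 CPM to 90.9 to 107 CPM in WT. EMB86, an alanyl-tRNA synthetase, went from 147, 129 and 133 CPM to 227, 229 and 242 CPM in gemin2 and from 138, 139.7 and 141 CPM to 63.8, 67.8 and 60.0 CPM in WT, so the genotypes moved in opposite directions. UGT73C6 was also among them but overlaps AT2G36792, as does the protein kinase gene AT1G78290 with AT1G78280. In the negative direction the BTB/POZ gene AT2G30600, which overlaps AT2G30615, went from 269, 206 and 232 CPM to 33.4, 37.9 and 36.1 CPM in gemin2 and from 51.7 to 53.9 CPM to 30.7 to 38.7 CPM in WT. KCS8, of fatty acid elongation, was at 77.0, 80.5 and 81.4 CPM and then 23.2, 30.4 and 23.3 CPM in gemin2, and at 22.6 to 26.0 CPM and then 25.7 to 28.8 CPM in WT.

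Introns were followed as their count in percent of the count of their gene. Summed over all introns, this share was 2.24%, 2.51% and 2.36% after 1 h and 2.37%, 2.66% and 2.65% after 24 h in gemin2. The groups overlapped, the share was higher at 24 h in 3 of 3 same-letter pairs, and the difference of 0.189 percentage points did not pass an exact permutation test (two-sided, n = 3 and 3, p = 0.2, where 0.1 is the smallest p this design allows). Within the pairs the rise was 0.123, 0.147 and 0.297 percentage points, with an exact sign-flip p of 0.25 (two-sided, 3 pairs), the smallest that 3 pairs allow. Of 9366 introns tested with the gene's count as an offset, 234 (2.50%) rose and 155 (1.65%) fell, with a median of 0.02 over all tested. An unadjusted p under 0.05 was found for 1487. Of the 389 called introns, 78.9% had the same sign in WT, where 61 of the 9366 rose (0.651%) and 74 fell (0.790%). Without library A of both times 175 were called, 101 higher and 74 lower, and without any single library 222 to 278.

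Called introns were also counted by the change of their gene. Among the 192 introns tested in genes that rose more than 4-fold, 21 fell and 7 rose, or 10.9% and 3.65%, and the 21 lay in 11 genes. Among the 279 in genes that fell at least 4-fold, 2 fell and 16 rose. In WT, with WT gene changes, 2 of the 151 introns in genes that rose more than 4-fold fell and 2 rose, and the difference between the genotypes in these counts was not tested. The gene's count enters both the intron's share and the gene's change, and several introns can belong to 1 gene, so these counts are descriptions. Introns that rose lay within the coding span in 70.5% of cases, those that fell in 91.6% and all tested in 86.4%. Median lengths were 144 bases for those that rose, 206 for those that fell and 127 for all. The donor site matched the 9-base consensus complementary to U1 snRNA at a mean of 5.92, 5.85 and 5.89 of 9 positions. GT and AG ends were present in 97.9%, 96.1% and 97.4%.

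**Figure D4:**
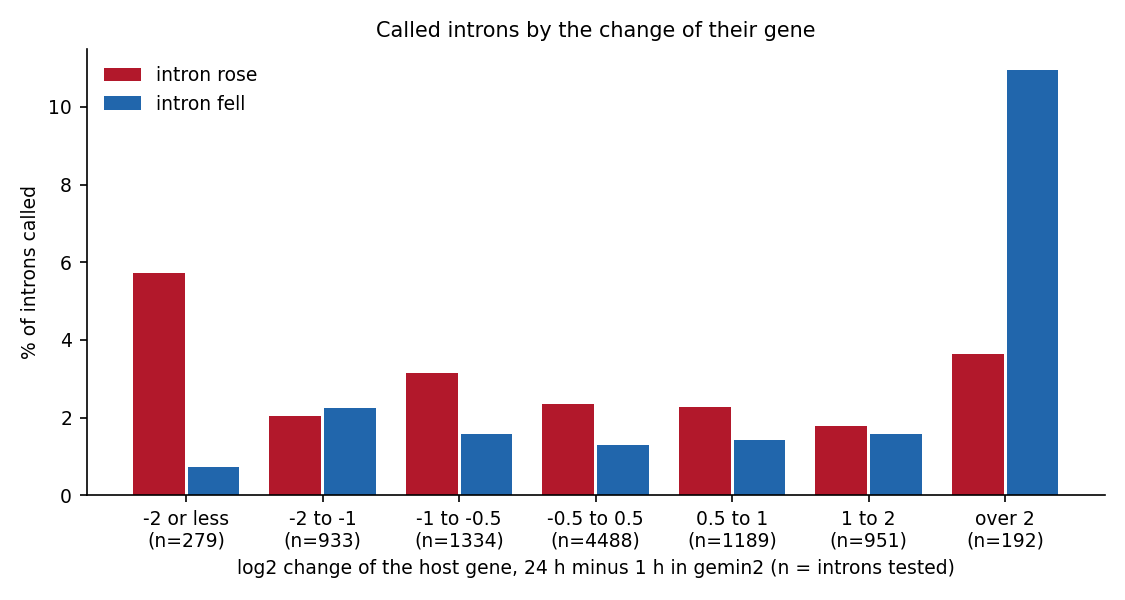
Percent of tested introns called higher (red) or lower (blue) relative to their gene at 24 h than at 1 h in gemin2, by the log2 change of the host gene, with the number of introns tested under each class and bars that start at 0. The class of genes that rose by over 2 on the log2 scale has 10.9% of introns called lower, against 1.29% among genes within 0.5 of no change.

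The sequences that follow are introns described below, shown because their share changed most or because their gene rose steeply. They are given 5′ to 3′ on the gene's strand from RefSeq's TAIR10.1, with the splice-site bases GT and AG in capitals. Introns carry the numbers of the deposited table, in order along the chromosome. All 8 lie within the coding span.
AGT1 intron I001, minus strand, chr2:5539555-5539632: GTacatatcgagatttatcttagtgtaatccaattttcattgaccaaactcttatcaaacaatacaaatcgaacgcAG
AT5G38720 intron I007, minus strand, chr5:15510168-15510429: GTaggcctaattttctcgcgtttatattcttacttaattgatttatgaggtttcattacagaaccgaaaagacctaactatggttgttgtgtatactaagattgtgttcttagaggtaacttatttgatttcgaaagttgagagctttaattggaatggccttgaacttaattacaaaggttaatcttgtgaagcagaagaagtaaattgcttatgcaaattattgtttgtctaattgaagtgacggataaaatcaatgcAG
COR15B intron I001, minus strand, chr2:17709420-17709676: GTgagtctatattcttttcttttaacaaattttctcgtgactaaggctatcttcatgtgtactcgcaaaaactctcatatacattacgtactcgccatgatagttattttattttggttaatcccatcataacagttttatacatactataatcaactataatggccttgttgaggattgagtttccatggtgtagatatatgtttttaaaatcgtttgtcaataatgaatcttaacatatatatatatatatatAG
ELIP1 intron I001, minus strand, chr3:8084973-8085116: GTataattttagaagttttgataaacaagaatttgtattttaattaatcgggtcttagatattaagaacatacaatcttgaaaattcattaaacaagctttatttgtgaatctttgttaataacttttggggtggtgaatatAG
GPT2 intron I003, plus strand, chr1:22825950-22826113: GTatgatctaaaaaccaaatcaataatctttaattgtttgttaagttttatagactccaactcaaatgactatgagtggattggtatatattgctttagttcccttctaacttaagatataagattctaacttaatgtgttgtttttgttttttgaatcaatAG
GBSS1 intron I001, minus strand, chr1:11920699-11920780: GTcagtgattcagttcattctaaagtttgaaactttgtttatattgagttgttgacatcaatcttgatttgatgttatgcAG
OEP16 intron I004, minus strand, chr2:12414956-12415206: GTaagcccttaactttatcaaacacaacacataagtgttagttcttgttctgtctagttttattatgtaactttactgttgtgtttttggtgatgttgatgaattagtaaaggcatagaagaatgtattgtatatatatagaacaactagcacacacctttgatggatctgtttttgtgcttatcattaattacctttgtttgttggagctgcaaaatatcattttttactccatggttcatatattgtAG
LHCA2 intron I002, plus strand, chr3:22746301-22746404: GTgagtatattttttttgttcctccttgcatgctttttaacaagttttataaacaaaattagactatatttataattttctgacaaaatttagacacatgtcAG

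The intron of AGT1, the serine:glyoxylate aminotransferase of photorespiration, rose in gemin2 and parted from WT. Its share was 0.348%, 0.532% and 0.603% after 1 h and 1.41%, 3.39% and 3.37% after 24 h, from 367, 209 and 249 counts and then 297, 628 and 643 counts. In WT it was 0.0675% to 0.0957% and then 0.0516% to 0.102%. It rose by 2.47 ± 0.26 in gemin2 (adjusted p = 1.43e-06), by 2.44 ± 0.42 more than in WT (adjusted p = 0.0126, edgeR), while the AGT1 gene changed by -0.93. Library A was the lowest at both times. Lack of overlap between the times was a condition for naming this intron among the largest rises. The difference of the AGT1 intron from WT was lost without gemin2 B or C at 24 h or WT C at 1 h (adjusted p = 0.0620, 0.0627 and 0.0660, edgeR). In all, the change of 4 introns differed from WT, 2 in each direction (0.0214% each), and 695 had an unadjusted p under 0.05. With library letter as a block 8 differed.

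Intron I007 of AT5G38720, which encodes a ribosomal RNA-processing protein, went from 0.120%, 0.490% and 0.142% to 2.87%, 2.64% and 2.28%, on 1, 4 and 1 counts after 1 h and 43, 68 and 56 after 24 h. Intron I027 of WSIP2, a TOPLESS-related corepressor, went from 0.386%, 0.405% and 0.513% to 2.48%, 2.99% and 3.50%. Intron I003 of ATG8E, an autophagy protein, went from 10.2%, 5.65% and 11.1% to 43.8%, 55.0% and 48.0%. Lack of overlap between the times was a condition for naming these introns among the largest rises. Of the other largest rises, AT2G19390 intron I015, XRN4 (AT1G54490) intron I001 and AT2G25870 intron I011 changed by 2.31, 2.25 and 2.22. Each had a result in 8 of the alternative settings, against 12 for AGT1 intron I001, and missed the filter on counts in others. The high counts at 24 h themselves enter that filter. AT1G70430 intron I017 is uncertain, since it overlaps AT1G70440.

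Several of the falls in share were in strongly induced genes. COR15B intron I001 was at 5.47%, 4.54% and 4.36% after 1 h and at 1.26%, 1.05% and 1.30% after 24 h, a change of -1.99 ± 0.24 (adjusted p = 4.34e-06). The gene rose by 5.35, so the intron's own counts went up, from 49, 49 and 40 to 247, 285 and 431. Intron I001 of ELIP1, an early light-induced protein, changed by -1.88 ± 0.25 from 5.09%, 3.38% and 2.71% to 1.29%, 0.964% and 0.913%, a fall also called in WT (-1.27, adjusted p = 0.00467, edgeR), and intron I003 of COR413PM1, a membrane protein, by -1.81 ± 0.32. GPT2 intron I003 went from 7.45%, 3.73% and 1.91% to 0.930%, 0.953% and 1.09%. For COR15B, ELIP1 and GPT2 the direction depends on the gene's count. Without it as an offset their introns changed by 3.39, 3.22 and 3.64. The COR413PM1 intron then changed by -0.59 and was not called (adjusted p = 0.166, edgeR).

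In GBSS1, the granule-bound starch synthase, which rose by 2.30, 6 of the 10 tested introns fell. Its intron I001 was at 1.98%, 1.60% and 1.49% after 1 h and at 0.593%, 0.373% and 0.410% after 24 h, a change of -1.89 ± 0.19 (adjusted p = 4.93e-07), and the others changed by -2.97 to -1.53. In BAM3, the chloroplast beta-amylase, which rose by 2.28, all 3 tested introns fell, by 0.77 to 2.08. Without the gene's count as an offset, 5 of these 6 GBSS1 introns and all 3 of BAM3 had the opposite sign. Introns I001 to I004 of GBSS1 also fell in WT, with changes of -1.88 to -1.44. GBSS1 intron I010 was not called on leaving out any 1 of 4 gemin2 libraries, B or C at 1 h or A or B at 24 h (adjusted p from 0.0609 to 0.146, edgeR). BAM3 intron I002 was not called without library B at 1 h or A at 24 h (adjusted p = 0.128 and 0.0886, edgeR). In OEP16, a channel of the outer plastid envelope, which rose by 3.83, 4 of 5 tested introns fell. Its intron I004 was at 5.03%, 7.58% and 6.23% after 1 h and at 1.88%, 2.53% and 2.06% after 24 h. In WT it was at 1.30% to 1.65% and then 1.35% to 1.84%, and the difference of -1.66 ± 0.25 passed the test (adjusted p = 0.00574, edgeR). Without the offset it changed by 2.30 in gemin2. GBSS1 and BAM3 introns were taken up after their values were seen.

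**Figure D5:**
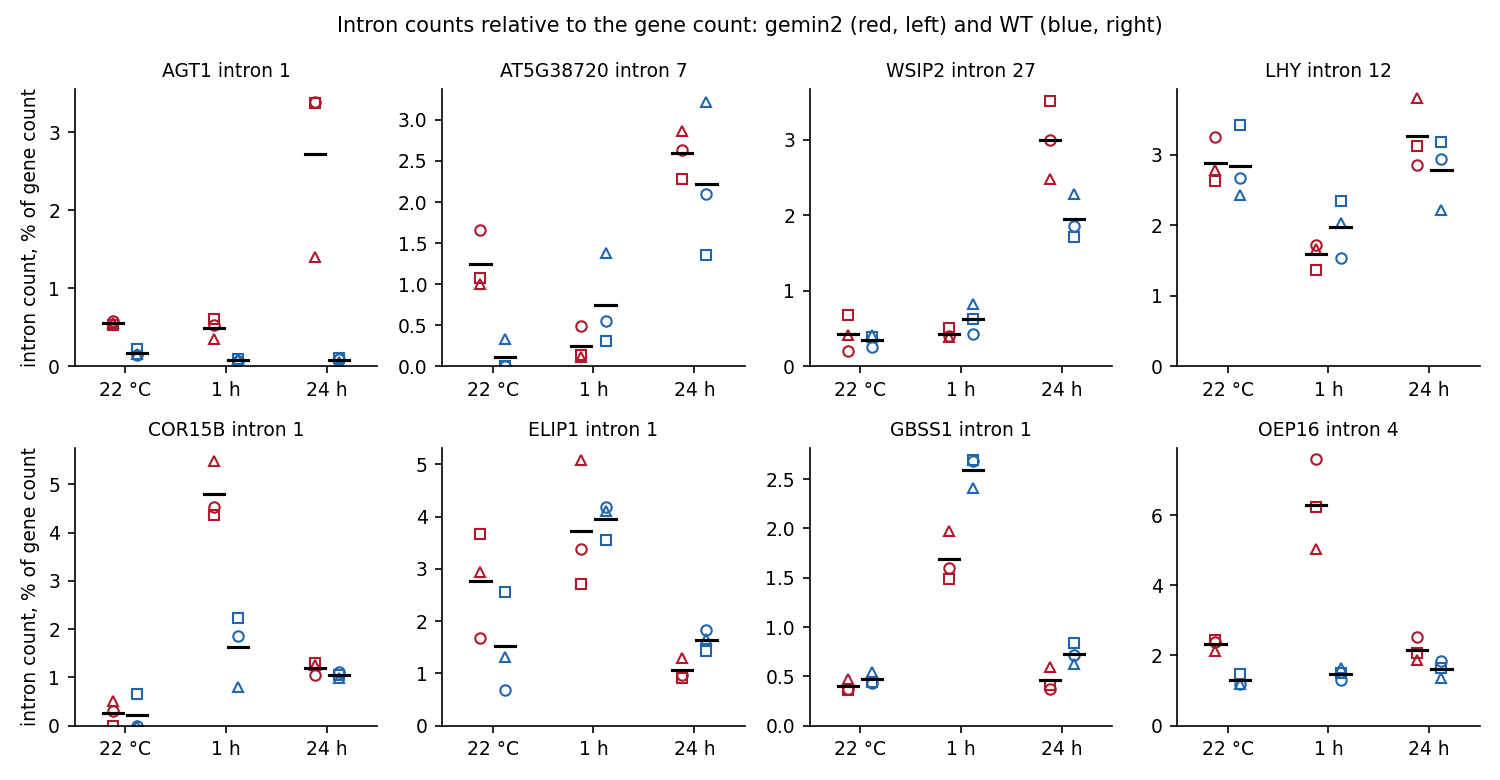
Counts of 8 introns in percent of the gene's count in gemin2 (red, left of each tick) and WT (blue, right), per library on linear axes, with triangles for library A, circles for B, squares for C and bars for means of 3. In the upper row AGT1 reaches 1.41% to 3.39% in gemin2 at 24 h, and in the lower row OEP16 is at 5.03% to 7.58% in gemin2 at 1 h.

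Other falls were in genes that fell. LHCA2 intron I002, of photosystem I, went from 0.298%, 0.224% and 0.186% to 0.0355%, 0.0497% and 0.0552%, a change of -2.34 ± 0.57 (adjusted p = 0.0161). It was not called without library A of both times (adjusted p = 0.162, edgeR). In CSLE1, a cellulose synthase-like gene, intron I003 had 62, 31 and 27 counts after 1 h and 0, 0 and 2 after 24 h, and in AT3G46490 intron I004 had 39, 58 and 44 counts and then 0, 0 and 1. Neither was called without library A of both times (adjusted p = 0.0895 and 0.146, edgeR). The AT3G46490 intron was not called on leaving out any 1 gemin2 library either (adjusted p from 0.0549 to 0.175, edgeR) or with DESeq2 (adjusted p = 0.138), and the CSLE1 intron was not called without library B at 24 h (adjusted p = 0.0732, edgeR). LHCA2 intron I002 was not called on leaving out A at 1 h or any 1 library at 24 h (adjusted p from 0.0538 to 0.0765, edgeR). OPR3 intron I002, of jasmonate synthesis, changed by -2.15 ± 0.34. Intron I006 of AT4G26555, an FKBP-like isomerase, went from 3.82%, 5.17% and 5.74% to 1.01%, 1.28% and 0.765%, on 4, 7 and 4 counts after 24 h, and differed from WT by -2.56 ± 0.49 (adjusted p = 0.0435, edgeR). That difference was lost without gemin2 B or C at 1 h or any 1 gemin2 library at 24 h (adjusted p from 0.0629 to 0.141, edgeR). Leaving out some single WT libraries ended it too. Intron I006 of the RNA helicase gene AT5G11170 also parted from WT. It was at 8.57%, 7.54% and 6.87% and then 9.30%, 11.5% and 11.1% in gemin2, which did not pass the test, and at 8.25% to 10.8% and then 3.90% to 5.67% in WT. The difference of the AT5G11170 intron was lost without gemin2 C at 1 h or B or C at 24 h (adjusted p = 0.0639, 0.0620 and 0.0627, edgeR). AT5G11170 has a near copy, AT5G11200, with which reads may be shared.

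Introns of splicing regulators changed in both directions. GRP7 encodes a clock-controlled RNA-binding protein that regulates the splicing of its own transcript. The gene rose by 1.30 ± 0.13, and its intron I002 went from 8.77%, 10.1% and 8.72% to 3.90%, 5.23% and 4.01%, a change of -1.07 ± 0.13 (adjusted p = 1.25e-05). Without the offset it changed by 0.23 and was not called. SR34 intron I011 went from 1.86%, 1.64% and 1.65% to 0.878%, 1.00% and 0.934%, and SR30 intron I003 from 1.14%, 1.97% and 0.920% to 4.94%, 5.47% and 2.50%. Neither was called without library A of both times (adjusted p = 0.0746 and 0.0853, edgeR). SR30 intron I003 was also lost without library B at 24 h (adjusted p = 0.0603, edgeR). PRP39A intron I011 and SMD2B intron I004 changed by -1.48 ± 0.35 and -1.05 ± 0.30, the latter not called on leaving out any 1 gemin2 library (adjusted p from 0.0546 to 0.183, edgeR). The PRP39A intron was not called without library B at 1 h, A at 24 h or C at 24 h (adjusted p = 0.0857, 0.0507 and 0.0504, edgeR). Without the offset the SR34, PRP39A and SMD2B introns changed by -0.25, -0.74 and -0.26 and were not called. LHY intron I012, outside the coding span, went from 1.67%, 1.72% and 1.37% to 3.81%, 2.85% and 3.13%, a rise of 1.02 ± 0.22 that was not called without library A of both times (adjusted p = 0.0714, edgeR).

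Of 3809 alternative splicing (AS) bins, the pieces of a gene that its transcript forms treat differently, 36 (0.945%) rose and 32 (0.840%) fell relative to the gene's count. An unadjusted p under 0.05 was found for 393. By the type in the deposited table, 18 of 1058 intron retention bins rose and 4 fell, 1 of 337 exon skipping bins rose and 10 fell, none of 559 alternative 5′ site bins rose and 6 fell, and 9 of 1240 alternative 3′ site bins rose and 6 fell. Without library A of both times 29 bins were called, and without any single library 33 to 48. The change of 2 bins (0.0525%) was more negative than in WT and that of 0 more positive by edgeR, with 174 at an unadjusted p under 0.05 and 3 called by DESeq2. With library letter as a block edgeR called 0.

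Of the bins, 4 are shown with the bin in capitals and 30 bases on either side in lower case, from TAIR10.1 on the gene's strand. The first is a called bin of an snRNP gene, the next are those whose change differed from WT, and the last is a retained intron among the largest rises.
PRP39A bin E009, plus strand, chr1:1054255-1054415: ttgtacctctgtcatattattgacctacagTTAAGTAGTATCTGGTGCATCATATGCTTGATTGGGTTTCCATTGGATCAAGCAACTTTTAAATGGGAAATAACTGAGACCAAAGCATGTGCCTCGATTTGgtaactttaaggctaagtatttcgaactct
SPY bin E010, plus strand, chr3:3634849-3634977: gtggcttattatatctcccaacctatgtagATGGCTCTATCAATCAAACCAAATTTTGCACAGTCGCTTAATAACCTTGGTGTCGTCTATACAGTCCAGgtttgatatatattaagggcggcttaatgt
FBA2 bin E002, minus strand, chr4:18164097-18164160: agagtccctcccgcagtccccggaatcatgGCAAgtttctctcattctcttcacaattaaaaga
FD-GOGAT bin E003, plus strand, chr5:1130277-1130414: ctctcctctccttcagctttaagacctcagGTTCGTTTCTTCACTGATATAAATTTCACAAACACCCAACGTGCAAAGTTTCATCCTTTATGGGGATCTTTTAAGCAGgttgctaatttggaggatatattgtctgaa

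PRP39A encodes a U1 snRNP protein. Its exon skipping bin E009, 101 bases long, held 40, 30 and 11 counts after 1 h and 1, 3 and 2 after 24 h, or 0.616%, 0.746% and 0.295% and then 0.0223%, 0.0589% and 0.0345% of the gene's count. It changed by -3.74 ± 0.64 (adjusted p = 0.00224), and the difference from WT of -3.72 ± 0.80 did not pass the test (adjusted p = 0.171, edgeR). The exon skipping bin E010 of SPY, an O-fucosyltransferase that restrains gibberellin signalling, went from 2.11%, 3.66% and 2.25% to 1.12%, 1.20% and 0.897% in gemin2. In WT it went from 1.35%, 1.65% and 1.36% to 2.58%, 2.86% and 3.22%, the opposite direction, but that WT change was not called (adjusted p = 0.176, edgeR). The difference was -2.30 ± 0.43 (adjusted p = 0.0478, edgeR). The 4-base alternative 5′ site bin E002 of FBA2, a plastid aldolase, was uneven between libraries, with 0.276%, 0.0244% and 0.205% after 1 h and 0.0109%, 0.0137% and 0.00540% after 24 h, and with 0.0232%, 0.341% and 0.348% in WT after 24 h. It differed from WT by -6.20 ± 1.14 (adjusted p = 0.0478, edgeR). Neither the SPY nor the FBA2 difference was called in the fit with library letter as a block.

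The retained intron bin E003 of FD-GOGAT, the ferredoxin-dependent glutamate synthase, 78 bases long, went from 0.0348%, 0.0158% and 0.0215% to 0.137%, 0.138% and 0.109%, a rise of 2.37 ± 0.43. Bin E006 of DSS1(I), a proteasome subunit, went from 1.42%, 0.775% and 0.903% to 4.40%, 4.62% and 4.94%, and bin E015 of LHY from 0.906%, 0.991% and 0.537% to 2.78%, 3.12% and 3.80%. All 3 are intron retention bins, named among the largest rises, for which lack of overlap between the times was a condition. Bins E018 and E017 of AT2G16940, a splicing factor of the CC1-like family, changed by -1.83 ± 0.19 and -1.66 ± 0.27, and the exon skipping bin E006 of AT5G47455 went from 19.6%, 13.9% and 19.5% to 3.02%, 3.50% and 5.71%. The alternative 3′ site bin E013 of SR34, an SR splicing factor, went from 5.23%, 4.59% and 5.04% to 2.24%, 2.54% and 2.08% (-1.12 ± 0.12, adjusted p = 9.35e-06). Bin E003 of SR30, of the same family, rose from 9.89%, 10.9% and 7.69% to 14.8%, 16.9% and 14.7%, and the exon skipping bin E005 of RS40 changed by -1.57 ± 0.32. In WT, SR30 E003 (0.88), SR34 E013 (-0.56) and AT2G16940 E018 (-0.72) were called too (adjusted p = 0.00361, 0.0252 and 0.0461, edgeR). RS40 E005, AT2G16940 E017 and the FD-GOGAT, DSS1(I) and LHY bins were not called in WT. The difference from WT passed the test for none of these. The gemin2 changes of the SPY, FBA2 and RS40 bins were not called without library A of both times (adjusted p = 0.0829, 0.255 and 0.0819, edgeR). Each was also lost without some single libraries, as was SR30 E003 without C at 1 h or B at 24 h (adjusted p = 0.0505 and 0.0591, edgeR). Without the offset the RS40 bin changed by -0.58 and was not called.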

How the data were processed

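RNA-seq of poly(A) RNA was deposited as raw read counts per gene, per intron and per AS bin for 18 libraries. Per the submitters' processing notes, the authors used TopHat2 2.0.9, R 3.0.2 and edgeR 3.4.2 on TAIR10; the counting program and its strand setting are not stated in the sources at hand. Gene counts were tested with edgeR 4.0.16 (quasi-likelihood, TMM, filterByExpr, limma 3.58.1, R 4.3.3) in 1 fit of 18 libraries and 6 groups. Introns and bins were fitted with their gene's count as an offset, where the region averaged 10 counts or more and the gene 50 or more, with no fewer than 10 in any library. Benjamini-Hochberg adjusted p under 0.05 was called; SE is the log2 change over the square root of F. Levels are TMM-scaled CPM or percent of the gene's count. Tests were checked on simulated data.

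The columns carry letters that the labels do not tie to replicate numbers. Deviations of same-letter gemin2 libraries at the 2 times correlated at 0.57 (A), 0.28 (B) and 0.20 (C). B and C were not separated from each other, at 0.26 (B with C) and 0.28 (C with B), while A correlated with them at -0.42 to -0.34. Only the A libraries were thus set apart by letter. Deviations within a group of 3 libraries are tied to each other, so the negative values are not separate evidence. In WT the same-letter values were 0.11, -0.09 and 0.16. Letters were used as pairs only in checks, and the reported fits held no block. A fit with the letter as a block, a sign-flip test of the intron share over the pairs (added after seeing the data), DESeq2 1.42.0, other scalings and filters, and each library left out were tried.

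Genes named were GEMIN2, the 10 that rose and the 10 that fell most among called genes averaging 5 CPM or more without overlap, up to 4 per list by adjusted p and the 5 smallest adjusted p-values for the difference from WT in each direction. For introns and bins these numbers were 8, 3 and 3. The largest rises and falls averaged 20 counts or more without overlap between the times, and the differences from WT averaged 20 counts or more. The lists were only the clock, CBF, COR, snRNP and SR lists. CBF1, CBF3, CCA1, ASN1, MYBL2 and the GBSS1 and BAM3 introns were added after their values were seen. The interval and the lists were chosen with earlier results of these data known. Sequences were read from RefSeq's TAIR10.1.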

Additional observations from a re-analysis of the deposited data

Results flagged for a closer look

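The results below had a change between 1 h and 24 h of cold that differed between gemin2 and WT by edgeR's test of the difference, with an adjusted p under 0.05 over all features of their kind. Values are the gemin2 change minus the WT change on the log2 scale. No test for outlying samples was run on groups of 3 libraries, though library A of both gemin2 cold groups stood apart, as given above.

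Clock and light genes with a more positive change in gemin2 were LHY (1.77), CCA1 (1.32), CO (2.27) and TEM1 (0.73), and those with a more negative change were PRR7 (-1.82), LUX (-1.22), LNK2 (-0.47) and GRP7 (-1.22). Among cold, calcium and starch genes the differences were 1.20 for ZAT12, 1.21 for LTI30, -1.89 for CBF3, 1.04 for SZF1, 0.55 for P5CS2, -1.03 for GPT2, -1.13 for ISA3 and -2.86 for ASN1. Among flavonoid genes they were 1.07 for PAP1, 1.25 for 4CL3, 0.63 for F3H, 2.13 for MYB111 and -1.99 for MYBL2.

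Splicing factors with a difference were SCL30A (0.77) and RSZ22A (0.58). Hormone, defence, chaperone and marker genes with a difference were PYL8 (-0.65), ICS1 (1.02), FMO1 (-1.50), HSP90.2 (0.57), SCR (0.35) and CYCB1;1 (1.32). The largest changes with a difference were those of AT2G18190 (3.05), AT1G69140 (1.41), AT5G54095 (4.25), AT5G13210 (3.30), AT1G74670 (-1.53), AT5G22920 (-2.48), FRO6 (-1.35), FRO7 (-1.01), AT5G18600 (-1.72) and AT1G49500 (-1.45). The smallest adjusted p-values belonged to EMB86 (1.90), AT2G36792 (3.41), UGT73C6 (3.40), MRP3 (2.60) and AT1G78290 (2.36) in the positive direction. In the negative direction they belonged to AT5G23240 (-2.27), KCS8 (-1.77), PRR7, EMB2729 (-1.69) and AT2G30600 (-2.06).

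Introns with a difference were AGT1 I001 (2.44), AT5G11170 I006 (1.47), AT4G26555 I006 (-2.56) and OEP16 I004 (-1.66). The bins were FBA2 E002 (-6.20) and SPY E010 (-2.30). Several of these calls were lost when 1 library was left out, among them both bins, the introns of AGT1, AT5G11170 and AT4G26555, and F3H, SCR, TEM1, PYL8, LNK2, GPT2, AT1G74670, FRO7, CBF3, FMO1, AT1G49500 and AT2G18190. With rRNA genes removed before scaling the differences of F3H, SCR and TEM1 were lost, with RLE factors those of F3H and SCR, with no filter on low counts that of SCR, and with a mean of at least 3 counts those of SPY E010 and AT4G26555 I006. Without the gene offset those of AT4G26555 I006 and AT5G11170 I006 were lost, and with the replicate block both bins.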

How the results depend on the processing

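Requiring a change of at least 1 on the log2 scale as well left 5175 genes and, for the difference from WT, 813. Left out one at a time, gemin2 libraries gave 11785 to 12368 genes, and gemin2 or WT libraries gave 2033 to 3044 genes that differed from WT. Introns called fell from 389 to 175 without library A of both gemin2 times and to 222 to 278 without any 1 library, and were 3062 with no gene offset, which then follows the gene. Introns that differed from WT, 4 in the reported fit, were 23 with DESeq2, 76 with no gene offset, 8 with the replicate block by library letter and 1 to 8 without any 1 library. AS bins called, 68 in the reported fit, were 1415 with no gene offset, 44 with only gemin2 at both times in the fit, 29 without library A of both and 33 to 48 without any 1 library. Bins that differed from WT, 2 in the reported fit, were 64 with no gene offset, 1 with a mean of at least 3 counts, 0 with the replicate block and 0 to 1 without any 1 library. The cause was not tested except where the offset itself changes the quantity.

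With no gene offset the change reversed for introns GPT2 I003 (3.64), COR15B I001 (3.39), ELIP1 I001 (3.22), OEP16 I004 (2.30), GRP7 I002 (0.23), GBSS1 I001, I002, I003, I005 and I010 (0.44, 0.62, 0.73, 0.23 and 0.50) and BAM3 I001, I002 and I003 (0.66, 1.52 and 0.18). It also reversed for bins AT1G19660 E011 (-1.06), SR30 E003 (-0.044) and AT3G23890 E017 (-0.48). Calls were lost, with the sign kept, for introns COR413PM1 I003, SR34 I011, PRP39A I011, SMD2B I004 and GBSS1 I004. The same held for bins RS40 E005 and AT2G34410 E006. The replicate block gave 13545 genes, 427 introns, 79 bins and 3649 genes that differed from WT, and among the named results it ended no call but those of the SPY and FBA2 bins against WT. DESeq2 gave 13127 genes, 446 introns, 93 bins and 3317 genes that differed from WT. The summed intron share differed by 0.126 to 0.286 percentage points without any 1 library and by 0.189 within the letter pairs, the same as unpaired, with an exact sign-flip p of 0.25. The median change of all genes stayed between -0.06 and 0.00 under every scaling and filter tried. Several called introns and bins rest on counts near 0 in 1 of the groups, where depth limits the value.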

Other observations

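Several introns of 1 gene were called together in few genes. All 3 tested introns of AT3G26580 rose relative to a gene that changed by -1.21. All 5 tested introns of RPP4 and 3 of 6 of RLM3 fell relative to genes that changed by -0.78 and -0.62, and both are resistance genes in a cluster of close paralogs, so reads may be shared. In AT5G11200, which has the near copy AT5G11170, 3 of 5 rose.

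By length, 91 of 3633 introns of up to 100 bases rose and 38 fell, 55 of 3173 of over 100 and up to 300 bases rose and 62 fell, and 88 of 2560 longer ones rose and 55 fell. By place, 82 of 2618 first introns rose and 42 fell, and 65 of 1972 last introns rose and 38 fell. Among the remaining 4776 introns 87 rose and 75 fell. These counts were not compared by a test.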
